A study of Arabidopsis thaliana with 4 samples.

Results

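The chloroplast carries its own small genome, and the gene identifiers that begin with ATCG are the Arabidopsis thaliana genes on it. All 133 of the 33341 genes in the count tables whose identifier begins with ATCG were taken, whatever their level. The counts came from whole seedlings 12 days after germination, raised at 22 °C on MS plates (1% sucrose) in days of 16 h light and 8 h dark. Wild-type Col gave 2 libraries, and the mutants atprmt3 and rps2a2b gave 1 each. By its name and the series title, the first mutant concerns PRMT3, a protein arginine methyltransferase, and the second concerns RPS2A and RPS2B, genes for a protein of the small subunit of the cytosolic ribosome. Sample titles carry suffixes (atprmt3-2, rps2a2b-1, col-2) that may be alleles or replicate numbers and were not interpreted. The labels name no treatment or agent beyond these growth conditions, and do not say how many seedlings or lines were pooled in a library.

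The plastid genome descends from that of a cyanobacterium, and it encodes subunits of the photosystems, of the cytochrome b6f complex, of the ATP synthase, of the NDH complex and of Rubisco, as well as the ribosomal RNAs, transfer RNAs and some of the proteins of the plastid ribosome. A bacterial-type polymerase, whose core is plastid-encoded and which needs nuclear-encoded sigma factors, and a phage-type polymerase encoded in the nucleus transcribe it. Most of its RNAs lack the long poly(A) tail of nuclear mRNA, and short A-rich tails added in the plastid mark RNA for decay. Libraries of the kind used here, made from mRNA, therefore sample plastid RNA incompletely, and how the RNA was selected is not given in the sources used here.

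The deposited tables do not pair these identifiers with gene names. The RefSeq annotation of the same genome (TAIR10.1) uses other locus tags, and its notes mention a few of these identifiers beside a nuclear relative or pseudogene, which a sequence search placed on the plastid genome. In this way 6 of the 133 are described here by name, and the other 127 by identifier or by count. The 6 are ndhJ (ATCG00420) and ndhK (ATCG00430), subunits of the NDH complex of cyclic electron flow, cemA (ATCG00530), for an envelope membrane protein, clpP (ATCG00670), for the proteolytic subunit of the Clp protease, and rpl20 (ATCG00660) and rpl2 (ATCG01310), for proteins of the plastid ribosome. The notes call ATCG00430 by an older name, a photosystem II protein G, while the search placed it on ndhK. All 6 lie on the plastid chromosome (Pltd). On the minus strand, ndhJ spans 48677 to 49153, ndhK 49257 to 49934, rpl20 68512 to 68865, clpP 69910 to 71882 in 3 coding exons, and rpl2 84337 to 85843 in 2 coding exons. On the plus strand, cemA spans 60741 to 61430. The rpl2 gene has a second copy at 152806 to 154312 on the plus strand, and the copies, 1507 bases long, differ at 0 bases. The search matched both copies equally (48.4% identity over 126 residues), so it did not settle which of them ATCG01310 stands for. The other named identifiers rise in number with position on the genome, and ATCG01310 has the highest number of all members. That order points to the copy at 152806 to 154312, but the placement was not tested.

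Since selection of mRNA usually relies on runs of A, the stretch of coding exon with the longest A run in each of these genes is shown, 5′ to 3′ on the coding strand, with that run in capitals. The sequences are from RefSeq, build TAIR10.1, and the position for rpl2 is that of the minus-strand copy.
ndhJ, Pltd:48875-48914: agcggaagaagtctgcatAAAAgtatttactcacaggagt
ndhK, Pltd:49874-49913: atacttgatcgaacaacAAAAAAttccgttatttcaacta
cemA, Pltd:60741-60780: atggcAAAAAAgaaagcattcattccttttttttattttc
rpl20, Pltd:68512-68551: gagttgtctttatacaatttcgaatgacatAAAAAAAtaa
clpP, Pltd:71843-71882: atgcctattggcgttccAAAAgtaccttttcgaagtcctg
rpl2, Pltd:84417-84456: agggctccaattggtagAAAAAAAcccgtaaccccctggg
The runs were 4 to 7 bases long. By the levels given below, ndhK, with a run of 6, was read most. The genes ndhJ and clpP, with runs of 4, were read far more than rpl20 and rpl2, with runs of 7, though the level of rpl2 is uncertain. Only coding exons were searched, and a link between these runs and read level was not tested.

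Library totals were 15646735 and 15637192 counts in Col, 18650053 in atprmt3 and 15194770 in rps2a2b. Over 20569 genes the Col libraries differed by no more than counting noise, with a chi-square per gene of 0.990, and they were counted as 1 sample, so every group had n = 1. Over 96 plastid genes the value was 1.22, and over the 395 genes with at least 10000 counts, a level that the most-read plastid genes also reach, it was 1.37, which is beyond counting noise (chi-square test, p = 1.75e-06). With n = 1, no difference between groups has a replicate check, and none is given a p-value. PRMT3 (AT3G12270) had 237 and 254 counts in Col, 132 in atprmt3 and 315 in rps2a2b, and RPS2A (AT1G58380) had 334, 318, 580 and 167. RPS2B was not analysed here. The summed level of 3 green tissue markers (a Rubisco small subunit gene and a pair of light-harvesting genes) was 34947 and 34737 CPM (counts scaled to a common library size) in Col, 26514 in atprmt3 and 20938 in rps2a2b. All 5 root markers were detected, and they summed to 92.2 and 90.3 CPM in Col, 70.9 in atprmt3 and 66.5 in rps2a2b. Their directions were mixed, with 3 higher and 2 lower than Col in atprmt3, and 2 higher and 3 lower in rps2a2b. Of the shoot meristem markers, CLV3 was at 0 in every library, and STM had 76 and 52 counts in Col, 150 in atprmt3 and 169 in rps2a2b (log2 fold changes 0.91 and 1.31). The phloem marker SUC2 stood at -0.82 and -0.84 against Col, and the guard cell marker FAMA at -0.31 and -0.67. The 3 seed storage markers summed to 37.7 and 42.0 CPM in Col, 633 in atprmt3 and 1208 in rps2a2b.

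Plastid genes took a small share of the reads, and the share was lowest in atprmt3. They held 209438 and 209895 counts in Col, 209426 in atprmt3 and 197149 in rps2a2b. As shares of the reads on genes these were 1.34% (95% Clopper-Pearson interval 1.33 to 1.34) and 1.34% (1.34 to 1.35) in Col, 1.12% (1.12 to 1.13) in atprmt3 and 1.297% (1.292 to 1.303) in rps2a2b. The intervals cover counting error only. After scaling by edgeR's trimmed mean of M-values (TMM), the plastid total was 13875 CPM in Col, 11093 in atprmt3 and 12258 in rps2a2b. On the log2 scale atprmt3 was 0.32 below Col (log2 ratio -0.32), rps2a2b was 0.18 below it (-0.18), and rps2a2b stood 0.14 above atprmt3. In these bulk samples, with 1 library per mutant, fewer plastid-rich cells and less plastid RNA per cell cannot be told apart. Nor can either be told from a library difference in how much plastid RNA passed the selection of mRNA. The summed level of the green tissue markers was also lower in both mutants, with 2 of the 3 below Col in atprmt3 and all 3 in rps2a2b, and their part in the result was not tested.

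The counted reads fell on few of the members. In total 23 members had 0 counts in all 4 libraries, which allows up to 3 counted reads each, 110 had counts in some library and 93 in every library. Reads with several alignments were counted on no gene, and 32 of 129 annotated plastid locus tags have no unique 50-base stretch. Most of the 23 lay among the identifiers from ATCG00840 to ATCG00990 and from ATCG01140 to ATCG01290. How many are genes without a unique stretch was not determined, since most members have no name here. A count of 0 therefore does not show that RNA was absent. At least 100 counts over the 4 libraries were reached by 74 members, and at least 10000 by 17. A single member, ATCG00480, had 47833 and 48122 counts in Col, 60358 in atprmt3 and 51171 in rps2a2b, and was the most-read member in each library. It took 22.8% and 22.9% of the plastid counts in Col, 28.8% in atprmt3 and 25.96% in rps2a2b. Scaled levels were 3162 and 3188 CPM in Col, 3197 in atprmt3 and 3182 in rps2a2b, which is nearly equal across the libraries, while the share it took of the plastid reads was larger in the mutants. The 5 most-read members held between 60.6% and 62.3% of the plastid counts, and the 10 most-read between 76.5% and 78.5%. In each library 18 members (19 in rps2a2b) made up 90% of the plastid reads, and 8 members were among the 10 most read in all 4 libraries.

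**Figure D1:**
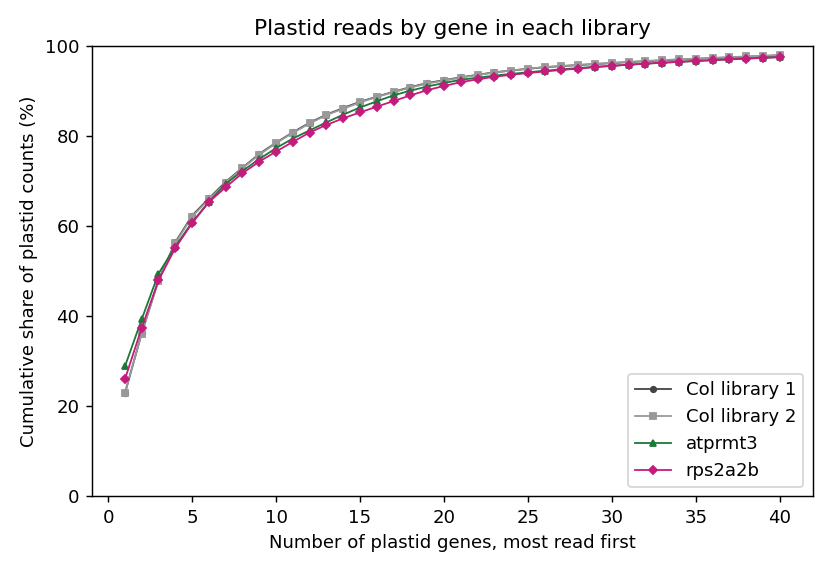
Cumulative share of all plastid counts (percent, vertical axis) against the number of plastid genes, ordered from the most read (horizontal axis), with 1 line per library. The lines nearly coincide from the fifth gene on, at 60.6% to 62.3%, and the first point is highest in atprmt3, at 28.8%.

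Among the named members, the NDH subunits were read most and rpl2 least. Per kilobase (kb) of coding sequence, the mean level in Col was 751 CPM for ndhK, 739 for ndhJ, 271 for clpP, 26.9 for rpl20, 10.7 for cemA and 5.33 for rpl2. The neighbours ndhK and ndhJ overlapped in this order, since the Col libraries gave 751 and 752 CPM per kb for ndhK and 724 and 755 for ndhJ. None of the 50-base stretches of rpl2 is unique in the genome because of its second copy, and a counter that leaves out reads with several alignments can lose most of its reads, so its low level is uncertain. The values given for rpl2 are those of ATCG01310 alone. Its other copy has a locus tag of its own in the annotation, and may be counted under an identifier not named here. The other 5 named genes consist of unique stretches throughout.

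**Figure D2:**
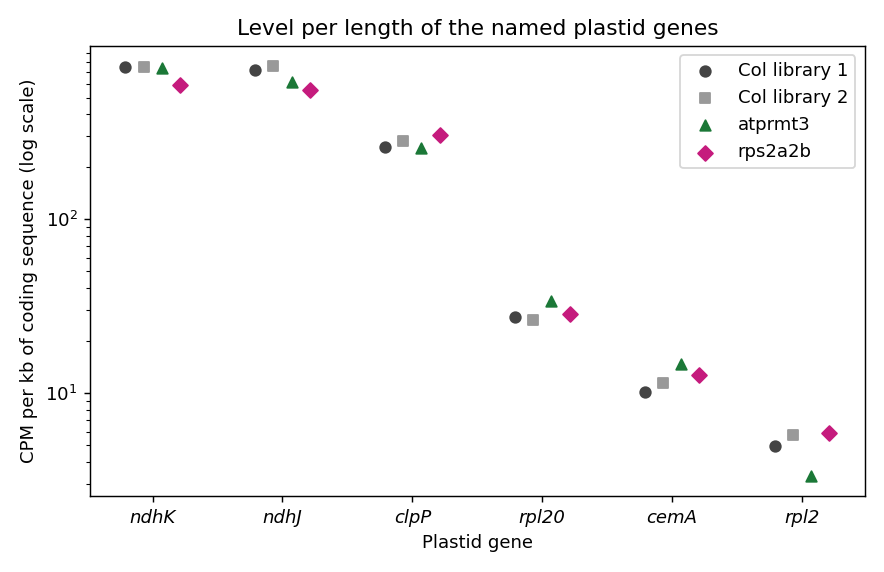
Level per length (CPM per kb of coding sequence, log scale, vertical axis) of the 6 named plastid genes, with 1 point per library. The 4 libraries of a gene lie close together, from 593 to 752 CPM per kb in ndhK to 3.34 to 5.88 in rpl2.

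The gene ndhJ had 345 and 360 CPM in Col, 292 in atprmt3 and 264 in rps2a2b. Its log2 fold change was -0.27 ± 0.07 in atprmt3 and -0.42 ± 0.07 in rps2a2b. The error is a read-sampling standard error (SE), widened by the excess over counting noise seen between the mutant libraries among low-count genes. These libraries differ in genotype, so the widening can include genotype differences. For ndhJ, both mutants lay below both Col libraries. For ndhK, the levels were 509 and 510 CPM in Col, 499 in atprmt3 and 402 in rps2a2b. Here rps2a2b was below Col, at -0.34 ± 0.06, and atprmt3 was within its SE of Col, at -0.03 ± 0.05.

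The protease subunit gene clpP stood at 154 and 166 CPM in Col, 152 in atprmt3 and 179 in rps2a2b, and its values of -0.07 ± 0.10 and 0.16 ± 0.10 were both within 2 SE of Col. The last 3 named genes had few counts, and their values against Col all lay within 2 SE. The size of that SE depends on the factor by which it was widened as well as on the counts. For cemA the counts were 105 and 119 in Col, 192 in atprmt3 and 140 in rps2a2b (0.46 ± 0.41 and 0.23 ± 0.44). For rpl20 they were 147, 141, 226 and 162 (0.33 ± 0.37 and 0.08 ± 0.40). For rpl2 they were 62, 71, 52 and 78 (-0.67 ± 0.64 and 0.14 ± 0.58). None of the 6 was at least 2-fold apart in any comparison.

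In atprmt3 against Col, more plastid genes lay below Col than above it. Of the 92 members that passed the filter on low counts, 33 were higher (35.9%, against 50.6% of all genes tested) and 59 lower, with a median log2 fold change of -0.17. At least 2-fold higher were 5, or 5.43%, against 8.97% of all 20937 genes tested, and at least 2-fold lower were 11, or 12.0%, against 6.33%. Most of these had few reads, since among the 74 members with at least 100 counts only 1 was 2-fold higher and 3 were 2-fold lower (1.35% and 4.05%, against 5.18% and 3.85% of all genes with that many counts). In those 74 the median was -0.13, with quartiles at -0.48 and 0.22, and 25 were higher and 49 lower. More than 2 SE above Col were 4 of them and more than 2 SE below were 19, or 25.7%, against 12.2% and 13.2% of all genes with that many counts. The SE narrows as counts rise. Here and in the comparisons below, the shares of all genes past 2 SE were not matched for level.

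In rps2a2b against Col, the members were spread about evenly. Of the 92, 52 were higher (56.5%, against 50.5% of all genes tested) and 40 lower, with a median of 0.087. At least 2-fold higher were 2, or 2.17%, against 9.99% of all genes tested, and at least 2-fold lower were 7, or 7.61%, against 6.29%. Among the 74 with at least 100 counts, 42 were higher and 32 lower, with a median of 0.081 and quartiles at -0.28 and 0.26, and 1 was 2-fold higher and 4 were 2-fold lower (against 6.02% and 4.07%). More than 2 SE above Col were 7 and more than 2 SE below were 14 (against 11.6% and 13.2%). The total was lower than in Col while the median was higher, and the sign of the median depended on the level of the members. Among the 19 members with a mean of at least 100 CPM, which held 91.7% of the Col plastid counts, the median was -0.13, against 0.099 in the 30 members from 10 to 100 CPM and 0.14 in the 43 below 10 CPM. In atprmt3 the same classes had medians of -0.27, -0.25 and -0.02.

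Set directly against each other, rps2a2b was above atprmt3 for 53 of the 92 members, against 50% of all genes tested, and below it for 39, with a median of 0.13. At least 2-fold higher were 5 members and at least 2-fold lower were 2, against 5.93% and 4.7% of all genes tested. Of the 74 members with at least 100 counts, 19 were more than 2 SE higher in rps2a2b and 3 more than 2 SE lower, against 5.93% and 6.45% of all genes. In the same 74, 1 was 2-fold higher and 1 was 2-fold lower, against 2.8% and 2.06%. Both comparisons with Col use the same Col libraries, so they are not independent.

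**Figure D3:**
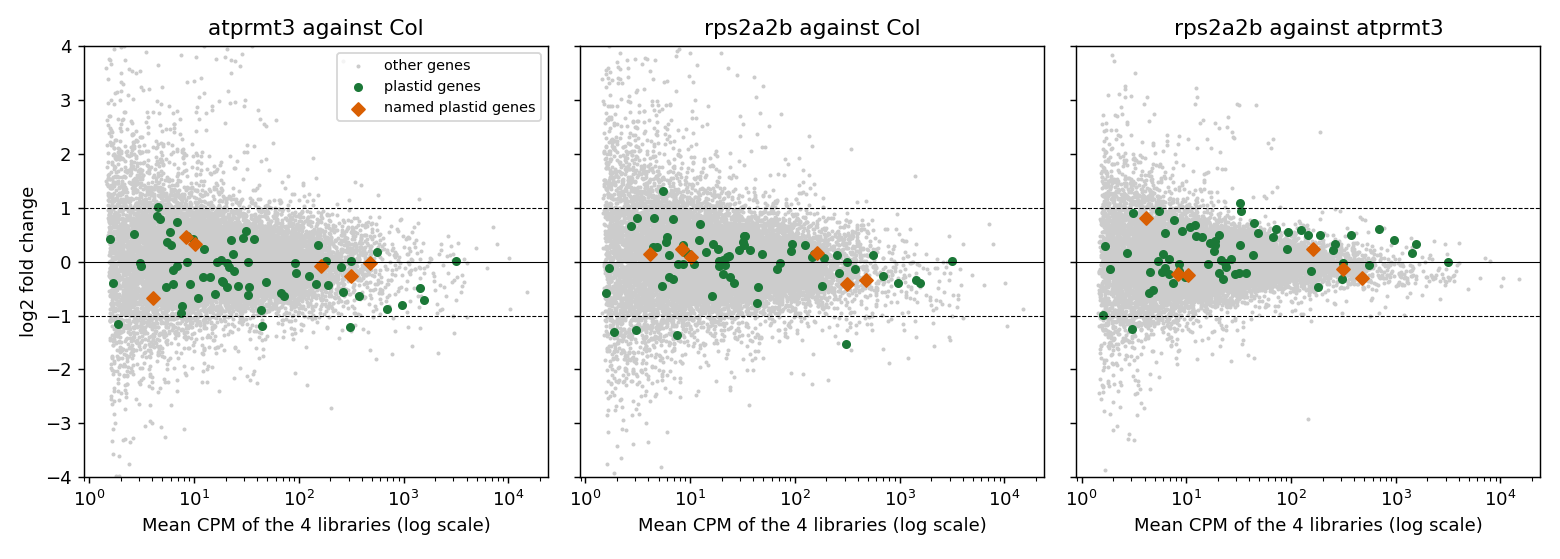
Log2 fold change (vertical axis) against the mean level of the 4 libraries (CPM, log scale, horizontal axis) for genes with at least 100 counts, with plastid genes in green, the named ones as orange diamonds and all others in grey, and dashed lines at 2-fold. Plastid genes lie within the grey cloud, from -1.21 to 1.01 in atprmt3 and from -1.54 to 1.301 in rps2a2b.

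Among members with at least 100 counts, the lowest fold change fell on the same member in both mutants. ATCG00220 had 432 and 454 CPM in Col, 191 in atprmt3 and 153 in rps2a2b, giving -1.21 ± 0.07 and -1.54 ± 0.08, with both mutants well below both Col libraries. ATCG00290 had 52.6 and 60.4 CPM in Col, 24.8 in atprmt3 and 40.8 in rps2a2b, giving -1.19 ± 0.20 and -0.47 ± 0.18. It was 0.72 ± 0.21 higher in rps2a2b than in atprmt3. The highest fold changes were in thinly read members. ATCG01060 had 42 and 53 counts in Col, 120 in atprmt3 and 89 in rps2a2b (1.01 ± 0.59 and 0.81 ± 0.62). ATCG01090 had 53 and 62 counts in Col, 92 in atprmt3 and 151 in rps2a2b (0.36 ± 0.58 and 1.301 ± 0.53). Between fits that changed 1 choice at a time, including leaving out 1 Col library, ATCG01060 in atprmt3 ranged from 0.85 to 1.19, so its place past 2-fold was not kept in all of them.

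Scaled to the plastid total of each library, ndhK was 0.29 above Col in atprmt3 and 0.16 below it in rps2a2b (log2 ratios 0.29 and -0.16). On that scale ndhJ was 0.05 above Col in atprmt3 and below it in rps2a2b, at -0.24. The total rests mostly on its most-read members, and it moved unlike the median member. In atprmt3 the log2 ratio of totals was -0.32 and the median -0.17, and in rps2a2b they were -0.18 and 0.087.

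The mitochondrial genome, the other organelle genome, was read from the same libraries, and most of its tested genes lay below Col. Of its 152 identifiers (those beginning with ATMG), 37 passed the filter. Their median log2 fold change was -1.13 in atprmt3 and -0.70 in rps2a2b, and 19 and 12 of them were at least 2-fold lower, against 6.33% and 6.29% of all genes tested. At least 2-fold higher were 5 in each mutant, against 8.97% and 9.99%. The mitochondrial total was nonetheless higher in the mutants, at 923 CPM in Col, 1092 in atprmt3 and 1276 in rps2a2b, so that total and median moved in opposite directions there. Plastid reads per mitochondrial read were 15.2 and 14.9 in Col, 10.2 in atprmt3 and 9.61 in rps2a2b.

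**Figure D4:**
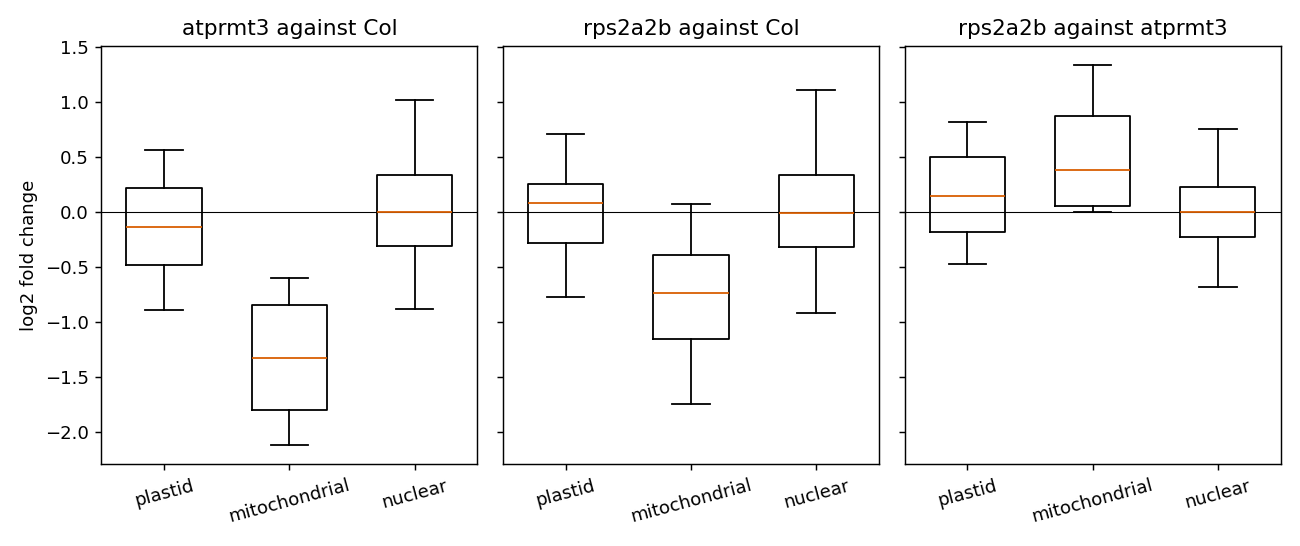
Log2 fold change (vertical axis) of genes with at least 100 counts on the plastid, mitochondrial and nuclear genomes (horizontal axis), 1 panel per comparison. Boxes span the quartiles with the median in orange and whiskers the central 90% of genes, with the plastid medians at -0.13, 0.081 and 0.14 and the mitochondrial medians at -1.33, -0.73 and 0.38.

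None of the listed nuclear genes that serve plastid gene expression was 2-fold apart from Col, where 15.3% of all genes tested were in atprmt3 and 16.3% in rps2a2b. Those shares include thinly read genes, while the least-read listed gene had 1013 counts. Among all genes with at least 100 counts, 5.18% were 2-fold higher and 3.85% lower in atprmt3, and 6.02% and 4.07% in rps2a2b. The share among genes read as much as the listed ones was not computed. Of 33 listed and tested (sigma factors, phage-type polymerases, polymerase-associated proteins and RNA stability factors), 15 were higher and 18 lower in atprmt3, with a median of -0.02, and 7 were higher and 26 lower in rps2a2b, with a median of -0.13, where 50.6% and 50.5% of all genes were higher. Of the 6 sigma factors, which direct the bacterial-type polymerase to promoters, SIGA was lower in both mutants, at 88.9 and 91.3 CPM in Col, 68.1 in atprmt3 and 65.6 in rps2a2b (-0.40 ± 0.13 and -0.46 ± 0.14). SIG2 stood at 0.03 ± 0.12 and -0.05 ± 0.13. SIGE stood at 0.07 ± 0.25 in atprmt3 and -0.47 ± 0.28 in rps2a2b. The other 3 sigma factors lay between -0.32 and 0.17.

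Of the genes outside the sigma factors, 3 were picked for mention after their values were seen. SCA3 (AT2G24120), a phage-type polymerase of the plastid, had 111 and 112 CPM in Col, 59.4 in atprmt3 and 86.5 in rps2a2b (-0.91 ± 0.13 and -0.37 ± 0.13), and had the lowest value of the 33 in atprmt3. HCF173 (AT1G16720), which serves translation of the psbA message, had 143 and 149 CPM in Col, 99.1 in atprmt3 and 85.6 in rps2a2b (-0.56 ± 0.11 and -0.77 ± 0.12). FSD3 (AT5G23310), a plastid iron superoxide dismutase, had 29.7 and 30.6 CPM in Col, 48.1 in atprmt3 and 45.8 in rps2a2b (0.67 ± 0.20 and 0.60 ± 0.21).

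**Figure D5:**
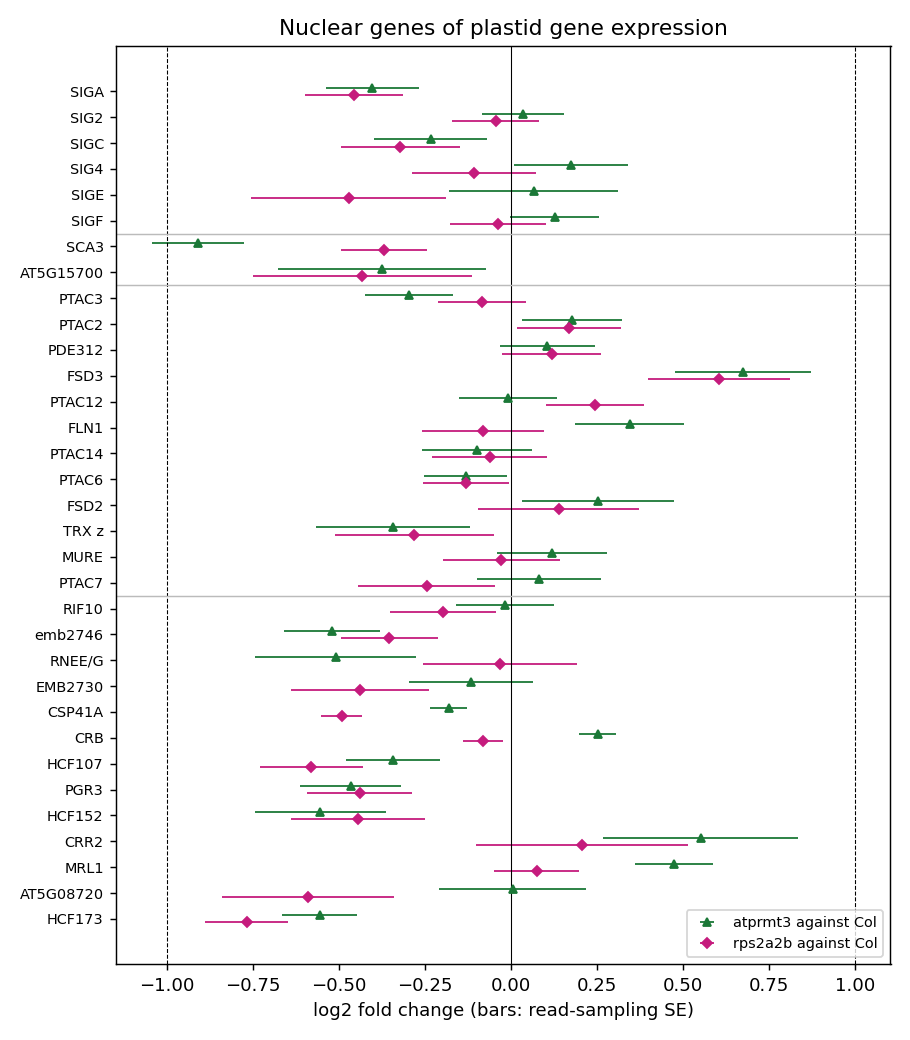
Log2 fold change against Col (horizontal axis, bars are 1 read-sampling SE) of the 33 nuclear genes for plastid gene expression, with atprmt3 as triangles and rps2a2b as diamonds, and grey lines between the sigma factors, phage-type polymerases, polymerase-associated proteins and RNA stability factors. All points lie inside the dashed 2-fold lines, and SCA3 in atprmt3, at -0.91, is the farthest from 0.

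The nuclear-encoded partners of plastid-encoded complexes were mostly below Col in rps2a2b. Of 34 partner subunits, 15 were higher and 19 lower in atprmt3 (median -0.11), and 3 were higher and 31 lower in rps2a2b (median -0.42), where 50.6% and 50.5% of all genes tested were higher. All 34 were lower in rps2a2b than in atprmt3, with a median of -0.36, where 50% of all genes tested were higher and the plastid members had a median of 0.13. The difference between these lists was not tested. The only partner at least 2-fold apart from Col, against 15.3% and 16.3% of all genes, was PSAD-2 (AT1G03130), a stromal subunit of photosystem I, at 1438 and 1445 CPM in Col, 758 in atprmt3 and 644 in rps2a2b (-0.93 ± 0.04 and -1.16 ± 0.04). These shares of all genes also include thinly read genes, while the least-read partner had 3436 counts. All 4 genes of the Rubisco small subunit were above Col in atprmt3, with a median of 0.30, and 2 of them were above it in rps2a2b, with a median of -0.10.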

How the data were processed

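The tables the authors deposited hold raw counts per gene, not normalized, for 4 strand-specific mRNA libraries made by the dUTP method, per the labels. Per the submitters' processing notes, TopHat2, HTSeq, edgeR and the TAIR10 genome were used. Versions, read length and the strand setting are not given in the sources used here, so reads from genes overlapping on opposite strands cannot be told apart. Rows that name no gene stayed out of library sizes. Reads on no gene were 1.37% to 1.80% of reads, reads on several genes 2.25% to 3.26%, and reads with several alignments 6.74% to 7.16%.

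Counts of all genes were fitted in R 4.3.3 with edgeR 4.0.16 (glmQLFit, TMM scaling, filterByExpr with a minimum count of 10 and a minimum total of 15), with 3 groups. The labels do not say that the Col libraries came from separate cultures. With n = 1 a group, genes at least 2-fold apart were counted and no p-value was computed between groups. The read-sampling SE of a log2 fold change uses a variance factor of 6.01 over counting noise, and 11.0 for the summed Col counts. The 6.01 is the chi-square per gene between atprmt3 and rps2a2b over genes with 10 to 99 counts. Those libraries differ in genotype, so the factor can include genotype differences. Between the Col libraries the chi-square per gene was 0.990, over all genes with at least 10 counts. The steps were tested on simulated data that held counting noise only, so that test does not cover the wider variation between the mutant libraries. BLAST+ 2.17.0 placed the nuclear relatives on the plastid genome.

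The members, lists and named genes were chosen with earlier results of these data known. The naming rule asked for members by role, for each member at least 2-fold apart and for the highest and lowest fold change among members with at least 100 counts. Since most members have no name in the files or the reference, the roles could not be applied. Only the extremes, the second lowest member in atprmt3 (ATCG00290), the most-read member and 6 named genes are printed. Other members at least 2-fold apart are included in the counts but not printed singly, so the rule was not met in full. The result of a further member is not reported here.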

Additional observations from a re-analysis of the deposited data

How the results depend on the processing

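The median log2 fold changes of the plastid genes kept their sign under DESeq2 (1.42.0) size factors and fit, upper-quartile factors, scaling over nuclear genes only, both other filters and without either Col library, at -0.097 to -0.19 in atprmt3, 0.055 to 0.11 in rps2a2b and 0.086 to 0.15 between the mutants. No scaling moved the median of all genes by more than 0.034. Counts past 2-fold depended on the filter. With no filter beyond 1 count, 12 members were higher and 15 lower in atprmt3, 6 higher and 12 lower in rps2a2b, and 10 higher and 11 lower in rps2a2b against atprmt3, where thinly read genes enter. With at least 100 counts they were 1 and 3, 1 and 4, and 1 and 1. Leaving out 1 Col library gave 3 (without library 1) to 4 (without library 2) members 2-fold higher in rps2a2b, against 2 with both. With reads on no gene, on several genes or with several alignments in the denominator, the plastid share was 1.18% in Col, 1.01% in atprmt3 and 1.15% in rps2a2b. Upper-quartile factors put the median of the nuclear partner subunits in atprmt3 at -0.079, and turned that of the 33 nuclear expression genes to 0.017. No paired analysis was possible because neither mutant library belongs to a particular Col library. The fit limited to protein-coding members outside the inverted repeat was not run, since most identifiers have no name here.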
